A study of Mus musculus with 154 samples.

Results

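The genes examined here are 44 genes of peroxisome proliferator-activated receptor alpha (PPARalpha) signaling, fatty acid oxidation and ketone metabolism, taken by name from the 13289 genes of a liver RNA-seq count table. All 44 were in the table. The mice were C57BL/6J (B6) controls and chromosome substitution strains (CSSs), in which B6 mice carry whole chromosomes from strain A/J. The mice were 5 weeks old, fasted overnight and, per the study's methods, all male. They comprised 20 B6 mice and 63 mice of 8 single CSSs heterozygous for A/J chromosome 3, 4, 5, 6, 8, 10, 14 or 17. A further 71 mice were of 15 double CSSs heterozygous for a pair of these chromosomes. A single CSS is named here by its A/J chromosome, so that A8 is (B6.A8  X B6)F1, and a double CSS by dam and sire, so that A14:A8 had a B6.A14 dam and a B6.A8 sire. Each single CSS had 8 mice except A5 with 7, and the double CSSs had 3 to 6. All other chromosomes were B6 in every strain. The effect of a strain is that of a whole chromosome and not of a gene on it. The label of 1 A3:A5 mouse lacked the F1 suffix that the others carry, and the mouse was kept in that strain.

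In the fasted liver, fatty acids released from adipose tissue are taken up, coupled to coenzyme A and either stored as triglyceride or oxidized. PPARalpha is a nuclear receptor that binds fatty acids and pairs with the retinoid X receptor on DNA, and its target genes include enzymes of mitochondrial, peroxisomal and omega oxidation. Long-chain acyl groups enter mitochondria through the carnitine shuttle, whose CPT1A step is rate limiting, and the acetyl-CoA made by beta-oxidation is used for ketone bodies. The receptor complex prefers a direct repeat of the half-site AGGTCA with 1 base between the copies.

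To show what such a site looks like in these genes, the repeat was searched on both strands of RefSeq promoter windows (GRCm38.p6, 250 bases before to 50 after the start), which exist for 36 of the 44 genes. With at most 2 mismatches over the 12 half-site bases, 6 of the 36 genes (16.7%) held a match, and 1190 of all 27025 gene symbols with a window (4.40%) did. A match is a description of letters and not a bound site. The 6 stretches follow, written along the gene's own strand, with the 13 bases of the match in capitals. Fabp1 (fatty acid-binding protein of hepatocytes, chr6:71199792-71199844, plus strand) had 1 mismatch, and the others had 2. These were Acot4 (a peroxisomal acyl-CoA thioesterase, chr12:84038346-84038398, plus strand), Creb3l3 (a fasting-activated transcription factor, chr10:81092768-81092820, minus strand), Etfa (electron transfer flavoprotein, chr9:55512288-55512340, minus strand), Plin2 (a lipid droplet coat protein, chr4:86670252-86670304, minus strand) and Slc25a20 (the carnitine-acylcarnitine carrier, chr9:108662122-108662174, plus strand).
Fabp1: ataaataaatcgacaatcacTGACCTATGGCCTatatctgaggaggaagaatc
Acot4: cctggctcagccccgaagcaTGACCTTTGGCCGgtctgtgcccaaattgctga
Creb3l3: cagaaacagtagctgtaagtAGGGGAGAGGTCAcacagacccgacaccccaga
Etfa: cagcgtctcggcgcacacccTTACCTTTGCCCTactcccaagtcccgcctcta
Plin2: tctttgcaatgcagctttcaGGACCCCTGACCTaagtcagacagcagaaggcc
Slc25a20: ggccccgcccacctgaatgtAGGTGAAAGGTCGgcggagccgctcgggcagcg

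The libraries held between 4638701 and 30465477 counts (median 16116424), and the defining markers of hepatocytes were abundant, with the 7 markers summing to between 46611 and 146470 CPM (counts scaled to library size) per mouse. Markers of adipocytes were not among the genes of the table. In replicate 3 of A14:A4, 4 Y-linked genes summed to 2.94 CPM, against 227.5 to 432.0 CPM in the other mice. The study's methods state that only male mice were sequenced, and the identity of this mouse was not tested. Counts of called genes per effect that change without this mouse are given with the results, and so are some of the calls. No 2 libraries of a strain agreed within sampling noise (the smallest chi-square per degree of freedom over 543 pairs was 8.80), so every mouse was counted. In bulk liver, fewer cells of a type and less RNA per cell cannot be told apart.

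Levels of the 44 genes spanned a wide range in B6 liver. Per kilobase of exon, the mean level of Fabp1 was 2580 CPM, that of Cyp4a14 2046 CPM and that of Cyp4a10 1283 CPM, the latter 2 being microsomal fatty acid omega-hydroxylases. Peroxisomal Ehhadh (the bifunctional enzyme of peroxisomal beta-oxidation) had 564.5 CPM and mitochondrial Acaa2 (the last thiolase of the beta-oxidation cycle) 459.2 CPM per kilobase. The lowest were Plin4 (a perilipin) at 1.68, Pdk4 (the kinase that switches off pyruvate dehydrogenase) at 2.26, Acot3 (an acyl-CoA thioesterase) at 2.32 and Fgf21 (the fasting hormone) at 2.94 CPM per kilobase. Fgf21 had a median of 20 counts per mouse and was the only 1 of the 44 genes with fewer than 15 counts in over 25% of the mice. Of the within-strain variance of log2 CPM, the 5 surrogate variables of the model, which stand for unmeasured sources of variation, took a median of 21.0% over the 44 genes, from 3.26% for Vnn1 to 57.1% for Etfb, and 21.4% over all genes.

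The strains differed in most of these genes. In a joint test of all 23 strain coefficients, 39 of the 44 genes passed an adjusted p of 0.05 (edgeR quasi-likelihood F-test, Benjamini-Hochberg), where 51.4% of all genes did. Angptl4 (a secreted inhibitor of lipoprotein lipase), Pdk4, Fgf21, Acsl1 (the main acyl-CoA synthetase of liver) and Plin2 did not pass. In the joint test of the 15 interactions, 26 of the 44 genes passed, against 27.4% of all genes. The strongest in this test were Acads (short-chain acyl-CoA dehydrogenase, adjusted p = 1.16e-07), Cpt1a (adjusted p = 5.24e-07), Acaa2 (adjusted p = 1.83e-06) and Acadvl (very long-chain acyl-CoA dehydrogenase, adjusted p = 2.89e-06). Over the genes that passed the joint strain test, interactions took a median of 52.9% of the fitted strain variation for these 39 genes, from 18.05% for Eci1 to 78.5% for Acads, and a median of 57.7% for all 6825 such genes. The study states that this proportion may be biased slightly upward by overfitting. It also reports nonzero proportions for genes without a significant interaction and for simulated additive data. Eci1 did not pass the joint interaction test (adjusted p = 0.49).

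To ask what 1 A/J chromosome did on its own, each single CSS was compared with B6 (the main effect). The 44 genes were mostly lower where they changed. Of 63 called main effects among 352 tested, 59 were decreases and 4 were increases. In A8, 22 of the 44 genes were called where 29.6% of all genes were, and 21 of these fell where 16.7% of all genes fell. In A14, 21 were called and all 21 fell, against 22.5% of all genes called and 12.6% called lower. In A4, 9 were called and all 9 fell, against 13.5% called and 5.88% called lower. The median log2 fold change of the 44 genes was -0.28 in A8, -0.25 in A14 and -0.11 in A4, while that of all genes was -0.01 in A8 and in A14. The other 5 single CSSs had few calls, with 4 genes in A10 (6.64% of all genes), 3 in A6 (8.09%), 2 in A3 (3.70%), 2 in A17 (3.67%) and 0 in A5 (0.768%). The 44 genes were nonetheless mostly low in A10, with a median log2 fold change of -0.17. There, 40 of the 44 estimates were negative, against 37 in A4. An unadjusted p under 0.05 was reached by 18 of the 44 genes in A10 (21.9% of all genes) and by 18 in A4. In A5, 1 of the 44 genes had an unadjusted p under 0.05, and the lowest adjusted p was 0.37. Without replicate 3 of A14:A4, the counts were 19 in A8 (26.9% of all genes), 22 in A14 (20.3%) and 10 in A4 (13.3%). Of these, 18, 22 and 10 fell.

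**Figure D1:**
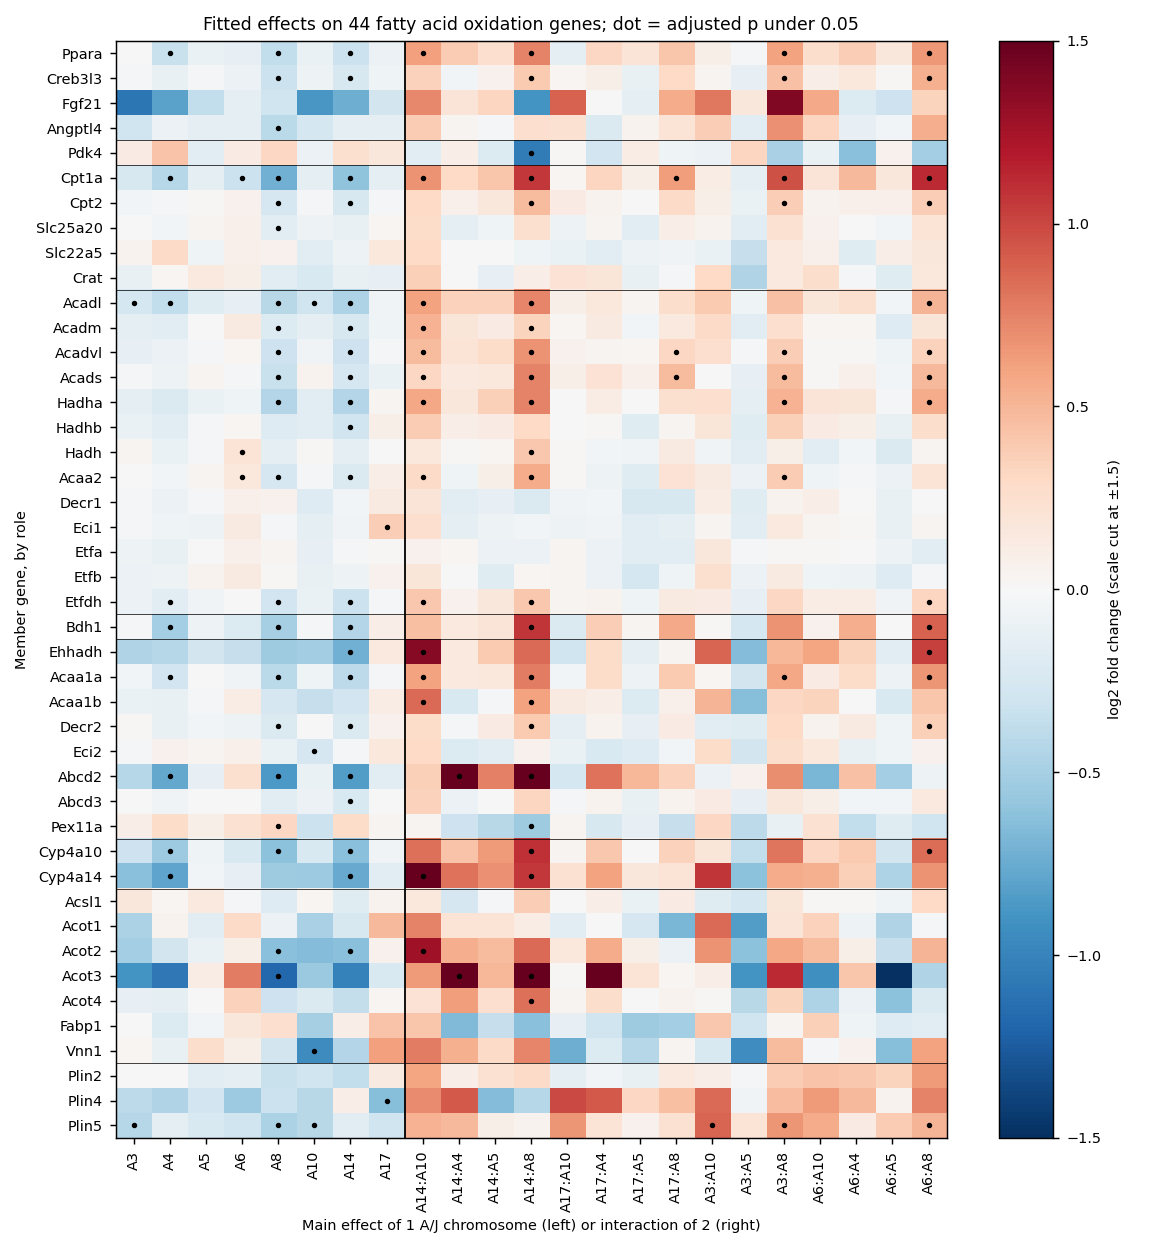
Fitted log2 fold changes of the 44 genes (rows, by role) for the 8 single-chromosome main effects (left of the line) and the 15 interactions (right), with a dot where the adjusted p was under 0.05. The A8, A14 and A4 columns are mostly blue (lower than B6), with 22, 21 and 9 dots, while the A14:A8, A6:A8, A14:A10 and A3:A8 columns are mostly red, with 23, 15, 14 and 10 dots.

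Among the regulators, Ppara itself, which encodes the receptor, ranged from 92.3 to 184 CPM in B6 mice with a median of 140.6 CPM. It ranged from 97.0 to 133 CPM (median 110) in A8, from 88.5 to 123 CPM (median 111) in A14 and from 94.8 to 133 CPM (median 112) in A4. All 8 mice of each of these strains were below the B6 median, and the ranges overlapped that of B6. The log2 fold change was -0.37 (SE 0.10; adjusted p = 0.0025) in A8, -0.32 (SE 0.09; adjusted p = 0.0068) in A14 and -0.34 (SE 0.09; adjusted p = 0.0084) in A4. Creb3l3, which activates genes of ketogenesis and triglyceride clearance in fasting, fell by 0.32 in A8 (SE 0.07; adjusted p = 1.48e-04) and by 0.24 in A14 (SE 0.06; adjusted p = 0.0036) on the log2 scale. Angptl4 fell in A8, where it ranged from 60.5 to 136.7 CPM against 106 to 199 CPM in B6, with a log2 fold change of -0.40 (SE 0.14; adjusted p = 0.024). Fgf21 passed the test in no strain. It ranged from 0.48 to 12.96 CPM (median 2.20) in B6, and its main effects lay between -1.08 in A3 and -0.13 in A6 on the log2 scale.

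Cpt1a, the entry enzyme of the carnitine shuttle, changed in 4 single CSSs. It ranged from 499 to 1075 CPM (median 798) in B6 and from 354 to 563 CPM (median 471) in A8, where 5 of the 8 mice were below the lowest B6 mouse. It ranged from 343 to 790 CPM (median 512) in A14, from 435 to 717 CPM (median 634) in A4 and from 409 to 737 CPM (median 639) in A6. All 8 mice of each of these 4 strains lay below the B6 median. The log2 fold change was -0.72 in A8 (SE 0.11; adjusted p = 1.10e-07), -0.60 in A14 (SE 0.10; adjusted p = 3.91e-06), -0.42 in A4 (SE 0.10; adjusted p = 0.0025) and -0.33 in A6 (SE 0.10; adjusted p = 0.027). Among the other shuttle genes, Cpt2, the inner-membrane transferase, fell by 0.25 in A8 and by 0.24 in A14, and Slc25a20 fell by 0.17 in A8 on the log2 scale. Slc22a5 (the plasma membrane carnitine transporter) and Crat (carnitine acetyltransferase) passed in no single CSS. Pdk4 ranged from 3.69 to 15.3 CPM in B6 and passed in no single CSS either, with main effects from -0.16 in A5 to 0.42 in A4.

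**Figure D2:**
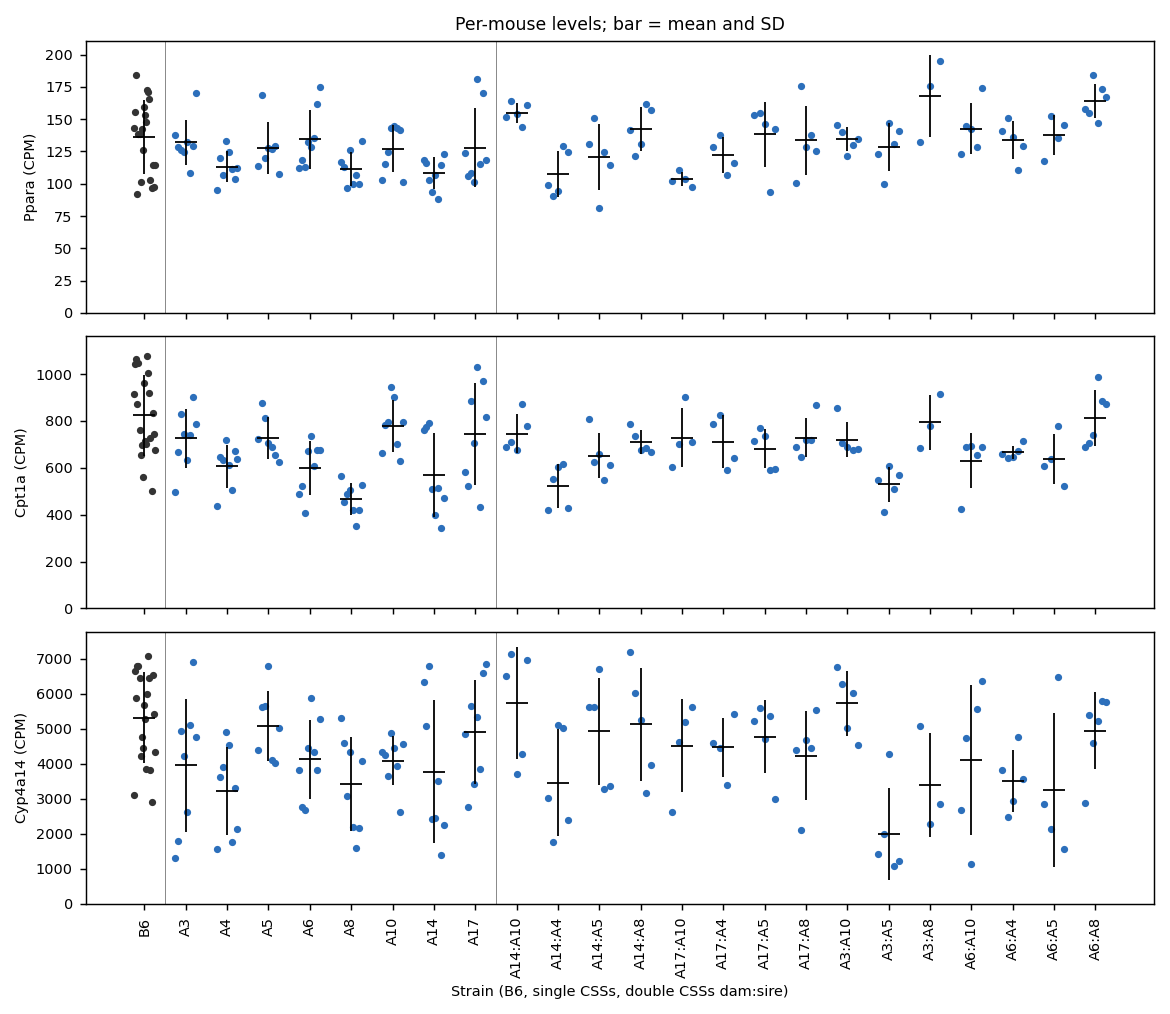
CPM of Ppara, Cpt1a and Cyp4a14 in every mouse (dots) by strain, with the mean and SD as bars. Cpt1a in A8 sits between 354 and 563 CPM, below most B6 mice, while the 5 A14:A8 mice sit between 668 and 785 CPM, within the B6 range.

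Of the 13 genes of mitochondrial beta-oxidation, 7 fell in A8, 8 in A14 and 2 in A4. Acadl, the long-chain acyl-CoA dehydrogenase, was called in 5 single CSSs, more than any other of the 44 genes. Its median was 192 CPM in B6 (range 140.6 to 223.5), 127 CPM in A14 (83.4 to 195), 149 CPM in A10 (124.5 to 174.6) and 158 CPM in A3 (129 to 198). On the log2 scale it fell by 0.46 in A14 (SE 0.08; adjusted p = 1.01e-05), by 0.42 in A8 (SE 0.09; adjusted p = 1.14e-04), by 0.37 in A4 (SE 0.08; adjusted p = 0.0012), by 0.30 in A10 (SE 0.09; adjusted p = 0.021) and by 0.26 in A3 (SE 0.08; adjusted p = 0.039). Hadha, the alpha subunit of the trifunctional protein, fell by 0.44 in both A8 and A14. Its beta subunit Hadhb was called in A14 alone, where it fell by 0.29, and its estimate in A8 was -0.19. Acads ranged from 63.8 to 92.1 CPM in A8 and from 93.9 to 134 CPM in B6, so that the groups did not overlap, and the log2 fold change was -0.33 (SE 0.06; adjusted p = 2.49e-06). Etfdh, which passes the electrons to ubiquinone, fell in A8, A14 and A4. Decr1, Etfa and Etfb, which serve unsaturated fatty acids and electron transfer, were called in no single CSS. In A6, Hadh (the hydroxyacyl-CoA dehydrogenase for shorter chains) and Acaa2 rose. Hadh ranged from 236.6 to 285.1 CPM in A6 and from 201 to 255 CPM in B6 (log2 fold change 0.20, SE 0.05; adjusted p = 0.011), and Acaa2 had a log2 fold change of 0.16 (SE 0.05; adjusted p = 0.023). Bdh1, which interconverts the ketone bodies acetoacetate and beta-hydroxybutyrate, had a median of 173 CPM in B6, 115 CPM in A8 and 117.2 CPM in A14. It fell by 0.51 in A4 (SE 0.13; adjusted p = 0.0040), by 0.49 in A8 (SE 0.14; adjusted p = 0.0035) and by 0.44 in A14 (SE 0.13; adjusted p = 0.0075) on the log2 scale.

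Of the 8 peroxisomal genes, 3 fell and 1 rose in A8, 5 fell in A14 and 2 fell in A4. Abcd2, a peroxisomal transporter of very long-chain acyl-CoA, ranged from 18.1 to 103.1 CPM (median 51.1) in B6, from 21.0 to 41.2 CPM (median 35.5) in A8, from 11.3 to 53.8 CPM (median 23.7) in A14 and from 16.9 to 49.3 CPM (median 24.6) in A4. Its log2 fold changes were -0.86 (SE 0.24; adjusted p = 0.0034), -0.83 (SE 0.23; adjusted p = 0.0037) and -0.77 (SE 0.22; adjusted p = 0.014). Ehhadh fell in A14, from a B6 median of 1631 CPM (range 688.4 to 2746) to 888 CPM (range 533 to 2207), with a log2 fold change of -0.72 (SE 0.24; adjusted p = 0.021). Acaa1a, a peroxisomal thiolase, fell in A8, A14 and A4, and its close paralog Acaa1b was called in none. Pex11a, a factor of peroxisome division, was the 1 gene that rose in A8, with a log2 fold change of 0.31 (SE 0.12; adjusted p = 0.041). Its CPM medians were 43.8 in A8 and 44.4 in B6, and the call was lost without surrogate variables (0.13), with 10 of them (0.31) and with those from unscaled counts (0.16). Eci2, an isomerase for unsaturated fatty acids, fell by 0.25 in A10.

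The omega-hydroxylases were among the most abundant of the 44 genes. Cyp4a10 ranged from 1348 to 3665 CPM (median 2702) in B6, from 885 to 2256 CPM (median 1569) in A8, from 696 to 3344 CPM (median 1737) in A14 and from 675.4 to 3270 CPM (median 1992) in A4. Its log2 fold changes were -0.61 (SE 0.18; adjusted p = 0.0063), -0.62 (SE 0.17; adjusted p = 0.0041) and -0.54 (SE 0.17; adjusted p = 0.012). Cyp4a14 ranged from 2901 to 7073 CPM (median 5540) in B6, from 1559 to 4907 CPM (median 3462) in A4 and from 1410 to 6782 CPM (median 2972) in A14. It fell by 0.79 in A4 (SE 0.21; adjusted p = 0.0028) and by 0.76 in A14 (SE 0.21; adjusted p = 0.0047) on the log2 scale, and in A8 the estimate of -0.54 was not called. These genes and other Cyp4a genes are paralogs, so reads from stretches that they share could be split among them by the authors' mapping.

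Among genes that bind, activate or hydrolyze acyl groups, Acot2 (a mitochondrial acyl-CoA thioesterase) fell by 0.63 in A8 and by 0.62 in A14 on the log2 scale. Acot3 had the largest called estimate in A8, -1.17 (SE 0.46; adjusted p = 0.040), from levels of 1.04 to 21.8 CPM in B6 and 0.58 to 5.51 CPM in A8. It had a median of 69.5 counts per mouse, and the Acot1 to Acot4 genes are paralogs on chromosome 12, so their values are uncertain. Acsl1, Acot1, Acot4 and Fabp1 were called in no single CSS. Among the lipid droplet genes, Plin5, which tethers droplets to mitochondria, fell by 0.47 in A8, 0.42 in A10 and 0.42 in A3 on the log2 scale, and Plin2 was called in none.

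The decreases in A8 and A14 moved together with those of other hepatocyte genes. Of the 7 hepatocyte markers, 6 fell in A8 and 5 in A14, and their summed level had a median of 105875 CPM in B6 (range 88970 to 146470), 69653 CPM in A8 (46611 to 97801) and 80102 CPM in A14 (52054 to 115520). Their median log2 fold change was -0.32 in A8 and -0.29 in A14, close to that of the 44 genes, and their part in the result was not tested. Markers of other liver cells moved less uniformly. In A8, 1 of 6 endothelial markers rose and 1 fell, 1 of 7 macrophage markers fell, 1 of 6 stellate markers rose and 2 fell, and 1 of 4 cholangiocyte markers rose. In A14, 2 endothelial markers rose and 1 fell, 2 macrophage markers rose and 1 fell, 1 stellate marker rose, and no cholangiocyte marker was called. The 1 pancreas marker in the table rose by 0.62 in A8 and by 0.56 in A14. The calls also depended on the number of surrogate variables. With 10 instead of 5, 3 of the 44 genes were called in A8 (9.20% of all genes), 1 in A14 (5.96%) and 0 in A4 (2.71%), and the estimate of Ppara turned to 0.04 in A8, 0.09 in A14 and 0.01 in A4. The estimate of Cpt1a in A8 was then -0.30 and still called.

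To ask whether the decreases extended to the rest of the pathway, 68 further genes of fatty acid handling were examined, of which 66 were in the table. In A8, 3 of the 66 were higher and 28 lower, and in A14, 2 were higher and 22 lower, where 16.7% and 12.6% of all genes were lower. In A4, 5 were higher and 3 lower, and the share called lower was below the 5.88% of all genes. Ppargc1a, the coactivator of PPARalpha, fell by 0.84 in A8, by 0.55 in A14, by 0.98 in A3 and by 0.67 in A6 on the log2 scale. The median log2 fold change of the 66 genes was -0.21 in A8 and -0.16 in A14.

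A gene on the substituted chromosome itself can differ through its own A/J allele (cis). The 44 genes include 22 that lie on 1 of the 8 substituted chromosomes, and 5 of these were called in that chromosome's own single CSS, where 18.4% of all genes on a substituted chromosome were. Vnn1, a pantetheinase of the liver on chromosome 10, ranged from 31.6 to 111 CPM (median 69.9) in B6 and from 25.1 to 50.1 CPM (median 36.6) in A10, with all 8 mice below the B6 median. The log2 fold change was -0.94 (SE 0.23; adjusted p = 0.0018). All 8 A10 mice were also below the B6 median for some genes on other chromosomes, among them Acadl, Hadha and Decr1. For others, such as Ppara (4 of 8), they were not. The level of Vnn1 was low in each cross with A/J chromosome 10. The 5 mice of A14:A10 had 25.2, 44.1, 45.7, 51.2 and 54.4 CPM. The 4 mice of A17:A10 had 18.1, 21.1, 33.7 and 59.7 CPM. The 5 mice of A3:A10 had 16.6, 25.2, 26.1, 41.3 and 42.8 CPM, and the 5 mice of A6:A10 had 21.3, 22.9, 28.9, 51.7 and 61.8 CPM. Over all 27 mice with an A/J chromosome 10 the median was 33.7 CPM, and over the other 127 mice it was 68.8 CPM. None of the 15 interactions of Vnn1 was called.

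Eci1, a mitochondrial isomerase for unsaturated fatty acids on chromosome 17, was the only 1 of the 22 genes that rose in its own single CSS. It ranged from 82.7 to 156 CPM (median 124.6) in B6 and from 132.2 to 236 CPM (median 179) in A17, where 5 of 8 mice were above the highest B6 mouse. The log2 fold change was 0.37 (SE 0.08; adjusted p = 1.92e-04). Over the 26 mice with an A/J chromosome 17 the median was 145 CPM (range 102 to 236), and over the other 128 it was 115 CPM (66.98 to 173). Some genes on other chromosomes were also high in A17. Of its 8 mice, 5 were above the highest B6 mouse for Decr1 and 4 each for Acaa2, Hadhb, Eci2 and Fabp1. For Ppara and Cpt1a, 0 were. None of these genes was called in A17 with 5 surrogate variables. Without surrogate variables, 7 of the 44 genes were called higher there (1730 of 13289 genes called in either direction). The part of the Eci1 allele itself in its rise was not tested. Plin4, also on chromosome 17, fell in A17 with a log2 fold change of -0.64 (SE 0.21; adjusted p = 0.026), from a median of 10.3 CPM in B6 to 5.48 CPM. Plin5, Decr2 and Angptl4 on the same chromosome were not called in A17. With 10 surrogate variables the estimates of Vnn1 in A10 (-0.77) and Eci1 in A17 (0.48) were still called, and that of Plin4 (-0.49) was not.

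**Figure D3:**
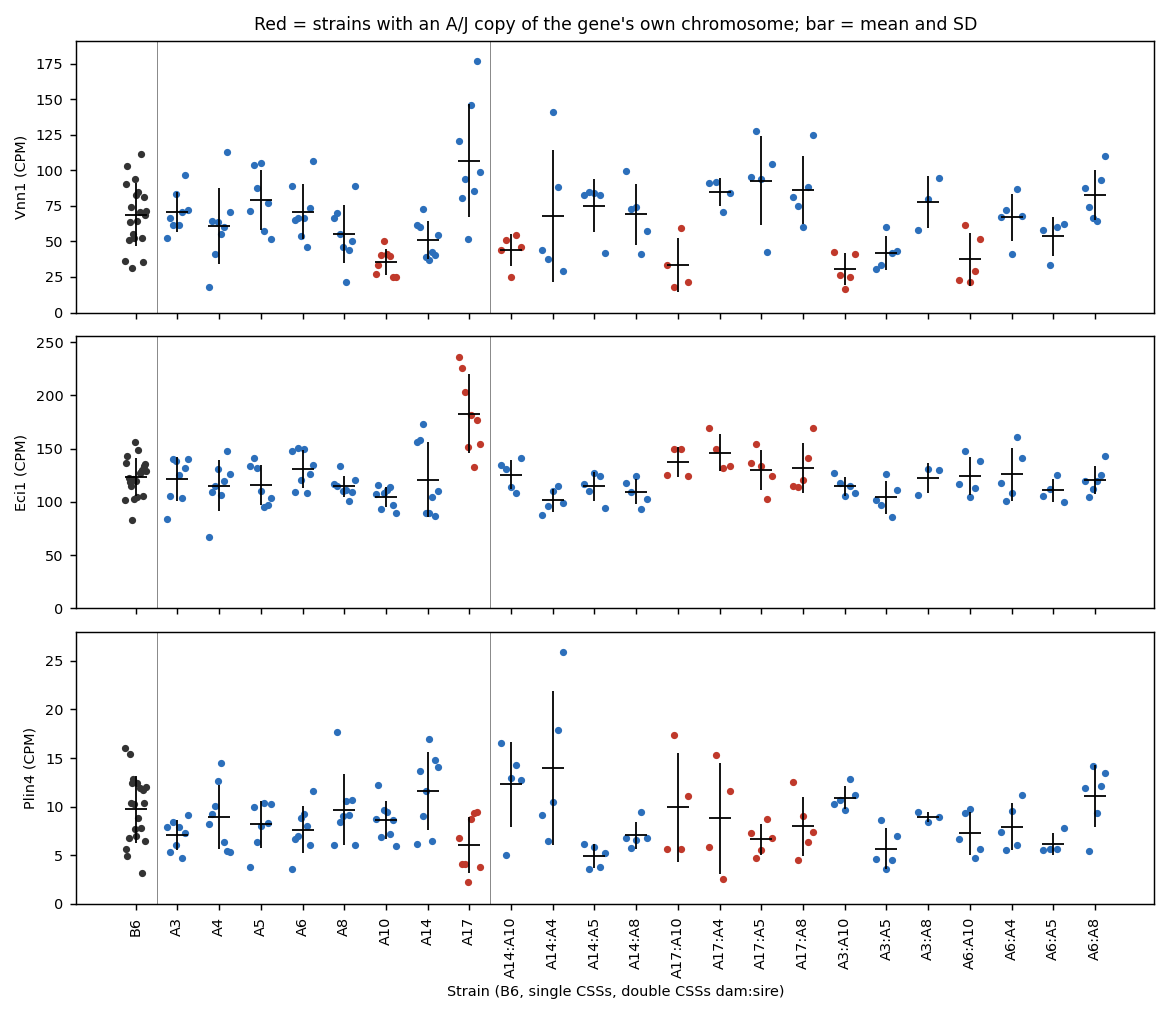
CPM of Vnn1 (chromosome 10), Eci1 and Plin4 (both chromosome 17) in each mouse by strain, with strains carrying an A/J copy of the gene's chromosome in red and the mean and SD as bars. The 27 red mice of Vnn1 have a median of 33.7 CPM against 68.8 CPM in the other 127, and the 8 A17 mice of Eci1 range from 132.2 to 236 CPM.

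On chromosome 4, the called genes were Cyp4a10 and Cyp4a14, while Cpt2, Decr1 and Plin2 were not called in A4. Cyp4a32, a paralog outside the 44 genes on the same chromosome, rose by 2.51 in A4 on the log2 scale (SE 0.12; adjusted p = 2.21e-39). How reads of the A/J alleles were shared among these paralogs was not tested. The remaining genes on a substituted chromosome had small estimates in their own single CSS, between -0.30 for Plin5 in A17 and 0.17 for Fabp1 in A6. These were Creb3l3 in A10, Pdk4 and Fabp1 in A6, Acadm, Hadh, Etfdh and Abcd3 in A3, Acads, Hadha and Hadhb in A5, and Acsl1 in A8, beside those named above. None of the genes that fell in A8 lies on chromosome 8.

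To ask whether the effect of 1 A/J chromosome depended on a second, each double CSS was compared with the sum of the main effects (the interaction). Of 68 called interactions among 660 tested, 66 were positive, that is, the double CSS was higher than the sum, and 2 were negative. In A14:A8, 23 of the 44 genes were called, 21 of them positive, where 32.4% of all genes were called and 18.1% positive. In A6:A8, 15 were called and all 15 were positive, against 24.8% called and 13.4% positive. In A14:A10, 14 were called and all 14 were positive, against 4.16% called and 2.45% positive. In A3:A8, 10 were called and all 10 were positive, against 7.56% called and 4.91% positive. The median interaction estimate of the 44 genes was 0.39 in A14:A8, 0.32 in A6:A8, 0.39 in A14:A10 and 0.37 in A3:A8, and that of all genes lay between 0.01 and 0.02.

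The other crosses had few calls, with 3 in A17:A8 (8.68% of all genes), 2 in A14:A4 (4.63%) and 1 in A3:A10 (1.17%), all positive. No gene of the 44 was called in A14:A5 (4.04% of all genes), A17:A4 (1.21%), A6:A4 (0.542%), A17:A10 (0.113%), A6:A10 (0.0527%), or in A17:A5, A3:A5 and A6:A5 (0% each). In these 8 crosses, between 1 and 8 of the 44 genes had an unadjusted p under 0.05, where between 4.49% and 19.1% of all genes did. With 3 to 6 mice per double CSS, a p that misses the threshold does not show that the effects add. An interaction contains the main effects of both single CSSs with the opposite sign, so crosses with the same single CSS share its mice, and a low single CSS raises the interaction by construction. This applies to A14:A10 too, as the median main effect of the 44 genes was -0.25 in A14 and -0.17 in A10.

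Cpt1a had a positive interaction in 5 crosses, in which every mouse lay within the range of the B6 mice. The 5 mice of A14:A8 had 668.1, 675.2, 686.4, 735.2 and 784.9 CPM, above all 8 mice of A8 and above the A14 median of 512 CPM. The main effects summed to -1.32, the interaction was 1.06 (SE 0.17; adjusted p = 2.35e-07), and the double CSS was 0.26 below B6 on the log2 scale (log2 fold change -0.26, SE 0.12). In A6:A8 the 6 mice ranged from 688.3 to 988.0 CPM (median 804.9), with an interaction of 1.12 (SE 0.16; adjusted p = 1.79e-07). In A3:A8 the 3 mice had 685, 779 and 917 CPM, with an interaction of 0.96 (SE 0.19; adjusted p = 5.85e-04). In A14:A10 the 5 mice had 677.2, 688.5, 710.9, 780.3 and 873.3 CPM, with an interaction of 0.67 (SE 0.18; adjusted p = 0.016), and in A17:A8 they had 647.9, 688.4, 719.3, 720.6 and 866.4 CPM, with an interaction of 0.62 (SE 0.17; adjusted p = 0.013). Every mouse of these 4 crosses with chromosome 8 was above all 8 A8 mice.

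Ppara had positive interactions in A14:A8 (0.74, SE 0.16; adjusted p = 8.31e-05), A6:A8 (0.65, SE 0.15), A14:A10 (0.62, SE 0.16) and A3:A8 (0.60, SE 0.17). The mice of A14:A8 had 121.5, 130.8, 141.4, 157.3 and 161.9 CPM, those of A14:A10 had 144.3, 151.6, 153.8, 161.0 and 163.9 CPM, and those of A3:A8 had 132.6, 175.8 and 195.1 CPM. All of these lay within the B6 range except 1 A3:A8 mouse, which was above it. Creb3l3 was called in A14:A8 (0.39, SE 0.11), A6:A8 (0.54, SE 0.10) and A3:A8 (0.44, SE 0.12). Fgf21, Angptl4 and Plin2 were called in no interaction.

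Among oxidation genes, Acads and Acadvl were each called in 5 crosses (A14:A8, A6:A8, A3:A8, A14:A10 and A17:A8), and Hadha in 4. Acads had 101.9, 106.9, 118.5, 119.6 and 121.95 CPM in A14:A8, above every A8 mouse, with an interaction of 0.74 (SE 0.09; adjusted p = 6.87e-11), the lowest adjusted p of any of the 660 tests. Bdh1 had 150, 172, 178, 189 and 197 CPM in A14:A8 (interaction 1.07, SE 0.22; adjusted p = 3.61e-05) and 173 to 200 CPM in A6:A8 (0.88, SE 0.21; adjusted p = 6.36e-04). In A14:A10 the largest called interactions were those of Cyp4a14 (1.54, SE 0.36; adjusted p = 0.0088), Ehhadh (1.36, SE 0.42; adjusted p = 0.041) and Acot2 (1.27, SE 0.37; adjusted p = 0.032). Cyp4a14 had 3723, 4288, 6515, 6969 and 7124 CPM there, and Ehhadh had 1212, 1311, 1741, 1818 and 2290 CPM. Neither gene had a called main effect in A10, where their estimates were -0.55 and -0.53. Cyp4a10 was called in A14:A8 (1.10, SE 0.28) and A6:A8 (0.83, SE 0.27), and Ehhadh also in A6:A8 (1.02, SE 0.38). Plin5 was the only 1 of the 44 genes called in A3:A10, with 67.2, 85.4, 93.5, 117.2 and 129.8 CPM, and an interaction of 0.87 (SE 0.20; adjusted p = 0.0093).

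Among the largest estimates were those of Abcd2 and Acot3. In A14:A8, Abcd2 had 55.5, 56.8, 58.2, 58.5 and 62.9 CPM, above all A8 and A14 mice, with an interaction of 1.99 (SE 0.38; adjusted p = 1.24e-05). Acot3 had 3.26, 4.66, 6.61, 10.7 and 11.4 CPM, with an interaction of 2.24 (SE 0.71; adjusted p = 0.0089). In A14:A4 the same pair made up the called genes, with interactions of 1.64 (SE 0.39; adjusted p = 0.0066) and 2.54 (SE 0.73; adjusted p = 0.028). There, replicate 3, the mouse with Y-linked counts near 0, had 116.6 CPM of Abcd2 and 23.7 CPM of Acot3. The other 4 mice had 18.2 to 44.9 CPM and 2.72 to 6.54 CPM. Without this mouse the estimates were 1.03 and 1.38 and neither was called.

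Both negative interactions were in A14:A8. Pdk4 had 3.72, 4.77, 5.40, 5.58 and 5.94 CPM there against medians of 7.25 in B6, 7.10 in A8 and 9.02 in A14, with an interaction of -1.05 (SE 0.35; adjusted p = 0.015). Its adjusted p passed 0.05 no longer when only genes with at least 15 counts in 75% of the mice were kept, with an estimate of -0.58, nor with 10 surrogate variables (-0.38). Pex11a had 40.5, 41.4, 44.1, 49.2 and 52.2 CPM, with an interaction of -0.53 (SE 0.20; adjusted p = 0.028).

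In 67 of the 68 called interactions the double CSS lay closer to B6 than the sum of the main effects did. The exception was Cpt2 in A6:A8, where the main effects summed to -0.18 and the double CSS was 0.19 above B6 (SE 0.07; unadjusted p = 0.0089). In 51 of the 68, the comparison of the double CSS with B6 gave an unadjusted p over 0.1, so no difference was detected. With an unadjusted p under 0.05, 8 differed, namely Cpt1a in A14:A8 and A17:A8, Creb3l3, Pdk4 and Etfdh in A14:A8, which were lower, and Acads in A14:A8 and A6:A8 and Cpt2 in A6:A8, which were higher. Because the interaction is computed from the same mice as both axes, nearness to B6 is not independent of the call. The same counts over all called genes are not given here. The study reports that most interactions over all liver genes were antagonistic, with a smaller difference from B6 than additive effects predict. For most of those, it reports a double CSS at control level. Nearness to B6 is therefore not shown to be particular to the genes examined.

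**Figure D4:**
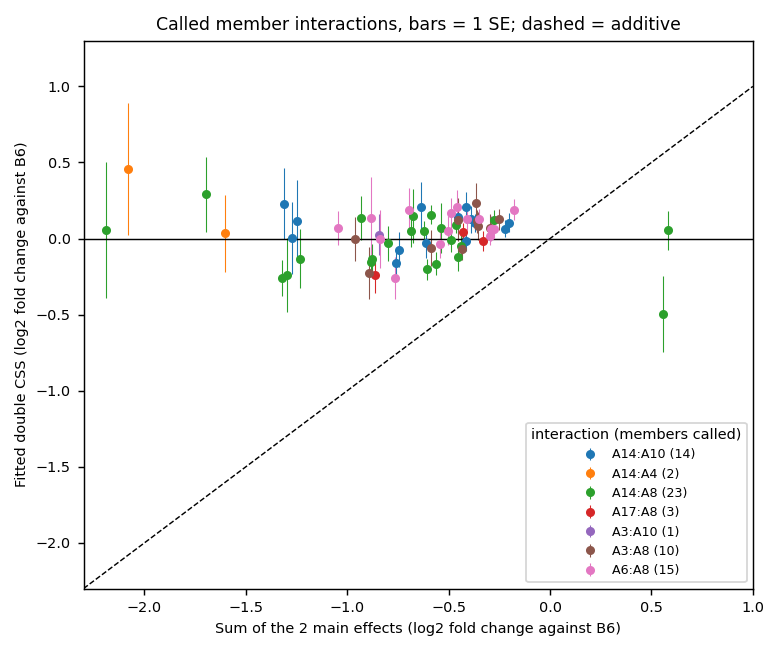
The 68 called interactions, with the sum of both main effects on the x axis and the fitted double CSS on the y axis (log2 fold change against B6, bars 1 SE), colored by cross. The points lie near the line at 0 and away from the dashed line of additive effects. In 51 of the 68, the comparison of the double CSS with B6 gave an unadjusted p over 0.1.

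The hepatocyte markers moved in the same crosses. Of the 7, 4 had positive called interactions in A14:A8, 4 in A6:A8, 4 in A3:A8 and 3 in A14:A10, and none was negative there. Their summed level had a median of 104583 CPM in A14:A8, 92630 CPM in A6:A8, 78190 CPM in A3:A8 and 111586 CPM in A14:A10. Their part in the result was not tested. Of the 66 further pathway genes, 29 were positive and 3 negative in A14:A8, 25 and 4 in A6:A8, 12 and 0 in A3:A8, and 10 and 0 in A14:A10, where 18.1%, 13.4%, 4.91% and 2.45% of all genes were positive. With 10 surrogate variables, 7 of the 44 genes were called in A14:A8 (4 positive and 3 negative, against 1465 of 13289 genes), 1 in A6:A8 (3.18%), and 0 in A14:A10 and A3:A8, and the interaction of Ppara in A14:A8 was 0.00. Single mice also mattered in small crosses, here with the surrogate variables of the full fit kept. Without replicate 3 of A3:A8 the count there was 1 instead of 10, and without replicate 2 or replicate 5 of A14:A10 it was 7 or 9 instead of 14. In a refit without replicate 3 of A14:A4, the mouse with Y-linked counts near 0, the count in A14:A10 was 9 (3.12% of all genes). In A14:A8, A6:A8 and A3:A8 it was 21, 14 and 8. The calls of Ehhadh in A14:A10 (1.30) and A6:A8 (0.96) were among those lost without this mouse.

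When each double CSS was compared with B6 directly, the 44 genes were low in some crosses with few or no called interactions. At an unadjusted p under 0.05, 30 of the 44 genes were lower in A3:A5 and 0 higher, where 27.3% of all genes passed, and 30 were lower and 2 higher in A14:A4, where 26.9% of all genes passed. The median log2 fold change against B6 was -0.30 in A3:A5 and -0.27 in A14:A4. Leaving out each mouse in turn gave between 23 and 32 genes in A3:A5 and between 29 and 33 in A14:A4, with 30 in A14:A4 without replicate 3. In A14:A5, 18 were lower and 0 higher (14.4% of all genes). In the crosses with most called interactions the counts were 11 in A14:A8 (20% of all genes), 5 in A6:A8 (16.3%), 4 in A14:A10 (10.9%) and 2 in A3:A8 (15.2%).

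In A3:A5 the lowest genes included Acot1, a cytosolic acyl-CoA thioesterase and PPARalpha target. Its 5 mice had 11.4, 13.4, 14.2, 15.1 and 20.03 CPM, all below the lowest B6 mouse at 24.8 CPM, with a log2 fold change of -1.46 against B6 (SE 0.26; unadjusted p = 1.40e-07). Ehhadh had 435, 438, 456, 635 and 971 CPM (log2 fold change -1.37, SE 0.30; unadjusted p = 1.24e-05). Cyp4a14 had 1087, 1224, 1440, 1986 and 4269 CPM (-1.28, SE 0.26; unadjusted p = 2.16e-06), and Cpt1a had 413.5, 511.1, 548.1, 571.4 and 607.9 CPM (-0.52, SE 0.12; unadjusted p = 3.41e-05). Neither A3 nor A5 had a called main effect for any of these 4 genes, and the summed main effects were -0.63, -0.73, -0.66 and -0.39.

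To ask which of the genes vary together among mice of the same genotype, the 44 genes were compared across the 20 B6 mice. Over the 946 gene pairs the median Pearson r of log2 CPM was 0.43, with 831 pairs positive, and over all pairs of the 13289 genes it was -0.0009. The median was 0.55 for the 147 pairs within a role and 0.40 for pairs between roles. Deviations from the strain mean gave a median of 0.46 over the 63 single CSS mice and 0.33 over the 71 double CSS mice. By role, the median was 0.60 in the carnitine shuttle, 0.58 in mitochondrial beta-oxidation, 0.53 in the peroxisome, 0.43 in acyl-CoA handling, 0.28 among the regulators and 0.15 among the lipid droplet genes.

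The 5 highest pairs were Decr1 with Eci1 (r = 0.92), Acot3 with Acot4 (0.92, paralogs), Slc25a20 with Abcd3 (0.90, Abcd3 being a peroxisomal transporter), Hadhb with Ehhadh (0.90) and Slc25a20 with Cyp4a10 (0.90). In the double CSS mice these 5 ranged from 0.50 for Slc25a20 with Cyp4a10 to 0.90 for Acot3 with Acot4. The 3 lowest were Plin4 with Etfb (-0.62), Eci1 (-0.53) and Decr1 (-0.51). They were weaker in the single CSS mice (-0.26, -0.16 and -0.16) and near 0 in the double CSS mice (0.06, -0.001 and -0.10). By the median of r with the other 43 genes, Ehhadh (0.70), Slc25a20 (0.68) and Hadha (0.66) stood highest, and Plin4 (-0.18), Abcd2 (0.02) and Pdk4 (0.05) lowest.

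**Figure D5:**
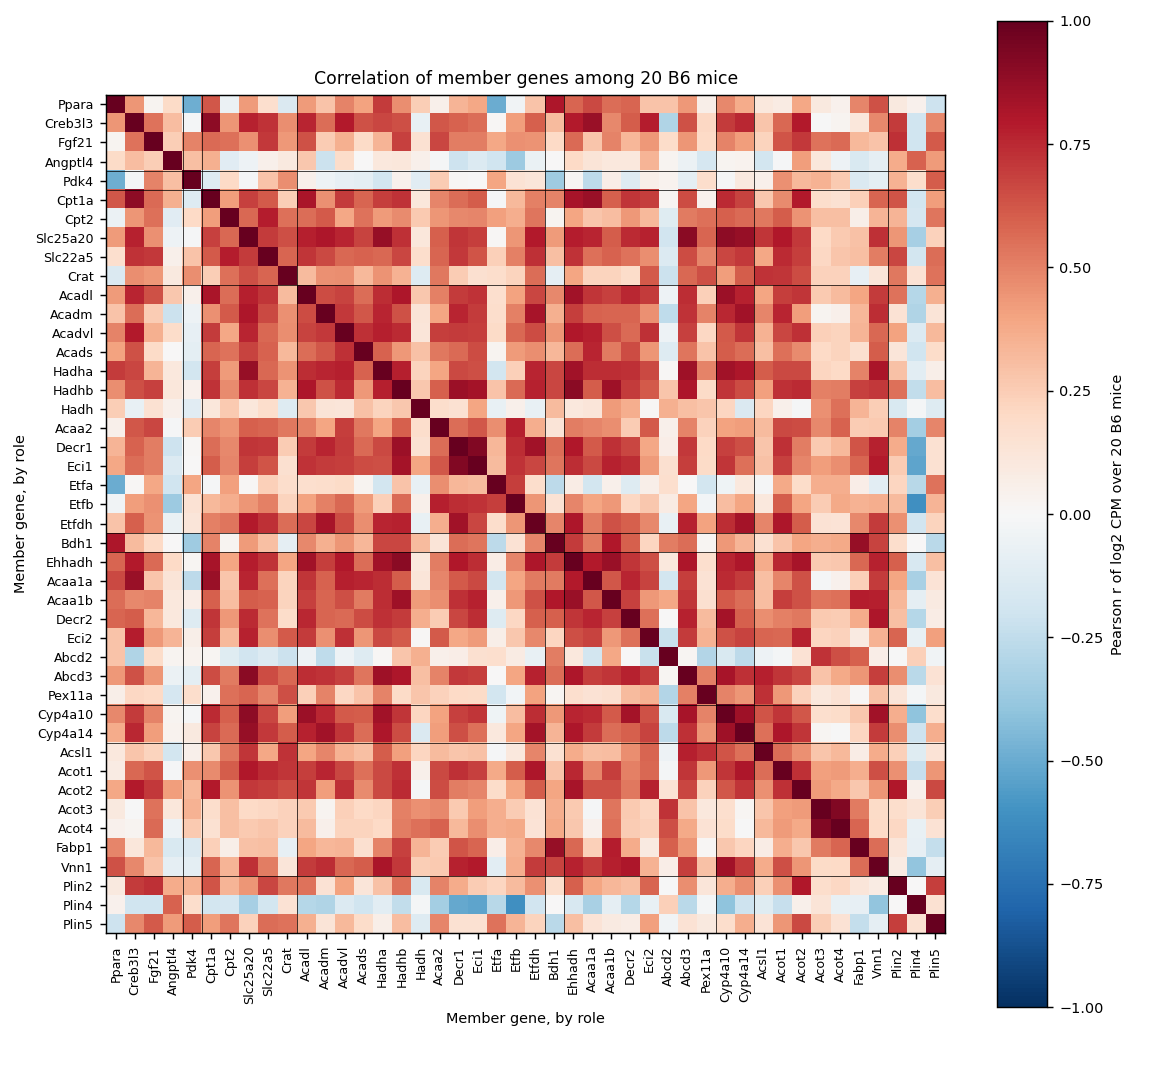
Pearson r between the 44 genes (by role) over the 20 B6 mice. Most cells are red (831 of 946 pairs positive), while the rows of Plin4, Abcd2, Pdk4 and Angptl4 are pale or blue.

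Cpt1a was set against 12 other genes in the B6 mice by permutation tests (100000 two-sided permutations, adjusted over the 12 pairs). The 12 were chosen with earlier results of these data known, which limits what the p-values show. Outside the 12, Creb3l3 (r = 0.89) and Acaa1a (r = 0.86) were closer to Cpt1a than any of them and were not tested. With 9 of the 12 it was positively correlated at an adjusted p under 0.05. The closest of the 12 was Ehhadh (r = 0.82, permutation p = 1e-05, the smallest the permutations can give; rho = 0.83, permutation p = 1e-05). It was followed by Cyp4a10 (r = 0.74, permutation p = 2.00e-04; rho = 0.75, permutation p = 2.10e-04), Hadha (r = 0.69, permutation p = 8.50e-04; rho = 0.80, permutation p = 5.00e-05), Cyp4a14 (r = 0.67), Plin2 (r = 0.63), Ppara (r = 0.62), Vnn1 (r = 0.58), Fgf21 (r = 0.57) and Acot1 (r = 0.47, the weakest, adjusted permutation p = 0.049). Ppara gave rho = 0.65. Those that missed the threshold by r were Acadm (r = 0.45, adjusted permutation p = 0.052), which passed by rank (rho = 0.72, adjusted permutation p = 0.0015), Angptl4 (r = 0.36, adjusted permutation p = 0.13; rho = 0.27) and Pdk4 (r = -0.13, adjusted permutation p = 0.58; rho = -0.09).

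Without the 2 B6 mice farthest from the Cpt1a median, 5 of the 12 correlations passed, namely Ehhadh (0.75), Hadha (0.65), Cyp4a10 (0.63), Ppara (0.59) and Cyp4a14 (0.55), while those with Plin2 (0.47), Fgf21 (0.48), Vnn1 (0.45) and Acot1 (0.37) did not pass. Of the 12, 11 passed in the single CSS mice and 10 in the double CSS mice, where deviations from strain means were permuted within strain. Ppara with Cpt1a gave 0.41 in the single and 0.24 in the double CSS mice, and the latter did not pass. Pdk4 passed in neither. Across the B6 mice, Cpt1a and Ppara had r of 0.51 and 0.52 with the log2 total count of the library, and the part of sequencing depth in these relations was not tested.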

How the data were processed

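The genes examined and the gene lists were chosen with earlier results of these data known. The deposited table holds raw counts of reads per gene for liver RNA of 154 mice. Per the study's methods and the submitters' notes, the authors aligned reads to mm10 with TopHat2, realigned unmapped reads to individualized A/J sequence, counted with HTSeq, and removed low-count genes and outlier mice. The strand setting of the counting is not given in the sources used here, so overlapping genes may share reads. Every column was mapped to a sample by its label, and 0 columns were left out. Total counts per mouse ranged from 4638701 to 30465477, so that the 44 genes had at least 20 counts at the median, and arms of 3 to 8 mice set the precision.

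Counts were fitted in edgeR 4.0.16 (R 4.3.3) with TMM normalization, 8 main effects, 15 interactions and 5 surrogate variables from sva 3.50.0. Effects were tested by quasi-likelihood F-tests over all 13289 genes, with Benjamini-Hochberg adjustment within each effect, apart for genes on the substituted chromosomes (cis) and the rest. A call is an adjusted p under 0.05. SEs were derived from the F statistic. Log2 CPM used a prior count of 2. Nothing in the labels says which mice share a cage or litter, so p-values measure the spread between these mice. In simulated counts on 13289 genes, 100 of 100 genes changed by 1 (log2) in A8 and 100 of 100 changed by 1.5 in A14:A8 were recovered. The median estimate of the genes examined was smaller, at -0.28 in A8 and 0.39 in A14:A8. The recovery therefore does not show how often changes of that size are found. Nor does it show how calls depend on the number of surrogate variables. Gene positions are from GENCODE vM21, which differs from the authors' release, and 47 genes without a position counted as not on a substituted chromosome.

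Genes described in detail were Ppara, Cpt1a, Fgf21, Pdk4, Cyp4a10, Cyp4a14, Angptl4, Plin2 and Creb3l3, up to 3 called genes with the largest change per effect, genes on a substituted chromosome, and the 5 highest and 3 lowest gene pairs in B6. Acadl, Acads, Bdh1, Ppargc1a and the genes of A3:A5 were added after their values were seen. The fit was repeated without surrogate variables, with 10 of them, with those estimated on unscaled counts, with DESeq2 1.42.0 (its size factors, and its own test), on genes with at least 15 counts in 75% of the mice, with the newer quasi-likelihood option, with the adjustment over all genes together, and with mice left out.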

Additional observations from a re-analysis of the deposited data

Results flagged for a closer look

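Among the 9 genes described first (Ppara, Cpt1a, Fgf21, Pdk4, Cyp4a10, Cyp4a14, Angptl4, Plin2 and Creb3l3), 17 of 198 sets of mice of 1 gene and strain held a mouse far from the others by Dixon's criterion. Chance gives about 1 in 20 for independent sets of normally distributed values. The sets share mice, and CPM need not be normal, so this rate is only a rough guide. Replicate 1 of A3:A10, for example, was flagged for Cpt1a, Fgf21 and Creb3l3. For Ppara the flagged values were 93.7 CPM in A17:A5 and 169 CPM in A5. For Cpt1a they were 853 CPM in A3:A10 and 423 CPM in A6:A10. Fgf21, the gene with the fewest counts of the 44, had 4.60 CPM in A10, 7.58 in A17:A8, 2.86 in A3:A10 and 4.32 in A6:A10. Pdk4 had 32.4 CPM in A14:A4, in the mouse with Y-linked counts near 0, and 19.1 CPM in A17:A4. Cyp4a10 had 2838 CPM in A3:A5 and 1646 CPM in A6:A8, and Cyp4a14 had 4269 CPM in A3:A5. The others were Angptl4 in A5 (152 CPM), Plin2 in A14:A5 (537 CPM) and A6:A5 (451.8 CPM), and Creb3l3 in A3:A10 (289.7 CPM).

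For the same genes, 17 interactions passed the test, so that the effect of 1 chromosome differed with the other. They were those of Ppara in A14:A10 (0.62), A14:A8 (0.74), A3:A8 (0.60) and A6:A8 (0.65), of Cpt1a in A14:A10 (0.67), A14:A8 (1.06), A17:A8 (0.62), A3:A8 (0.96) and A6:A8 (1.12), and of Creb3l3 in A14:A8 (0.39), A3:A8 (0.44) and A6:A8 (0.54). The remaining were Cyp4a10 in A14:A8 (1.10) and A6:A8 (0.83), Cyp4a14 in A14:A10 (1.54) and A14:A8 (1.06), and Pdk4 in A14:A8 (-1.05). With 10 surrogate variables, 7 of the 44 genes were called in A14:A8 (11% of all genes) and 1 in A6:A8 (3.18%). In A14:A10 (0.0376%), A3:A8 (0.293%) and A17:A8 (0.00753%), 0 were called.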

How the results depend on the processing

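The number of surrogate variables changed the results most. With 10 instead of 5, the joint interaction test called 6 of the 44 genes (9.80% of all genes), and there were 16 called main effects and 10 called interactions. Estimates then turned in sign for Ppara in A14 (0.089), A4 (0.0057) and A8 (0.038), Abcd3 in A14 (0.0036), Decr1 (0.062), Cpt2 (0.016) and Acaa1a (0.14) in A4, Acaa1a (0.019) and Acadm (0.032) in A8, Decr2 A8 (6.49e-05), Acaa1b (-0.095) and Acadm (-0.061) in A14:A8, and Pdk4 in A6 (-0.044). The cause was not tested. With surrogate variables from unscaled counts there were 98 called main effects and 113 called interactions of the 44 genes. The share of all genes called was then 43.3% in A8 and 37.4% in A14:A8, so the higher counts were not particular to these genes. Pdk4 in A6, not called, also turned with the count filter (-0.013) and without surrogate variables (-0.051), and Cpt2 in A4, not called, without replicate 3 of A14:A4 (0.0019). Without the 2 farthest B6 mice, 5 correlations of Cpt1a passed. Over the 9 alternatives of the fit, the 63 called main effects lost the call in 74 of 567 values and turned in 8, and the 68 interactions did so in 95 and 2 of 612. Each of 71 double CSS mice was left out with the surrogate variables and dispersions (the estimates of spread) of the full fit kept. This gave 59 to 71 called interactions, where only the cross of the mouse left out was tested again. It gave 23 to 28 genes in the joint interaction test, and against B6 29 to 33 genes in A14:A4 and 23 to 32 in A3:A5. These last ranges were chosen after seeing the data. The refit without replicate 3 of A14:A4 estimated surrogate variables and dispersions anew and is not part of these ranges. It called 9 genes in A14:A10 instead of 14. No paired analysis was possible because the replicate numbers only name mice in accession order. Counts of 20 at the median limit Fgf21, and 3 mice limit A3:A8.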
